A study of Mus musculus with 13 samples.

Results

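The 10 genes described here are transcripts of the 2-cell-like state of mouse embryonic stem (ES) cells: the deubiquitinase genes Usp17la, Usp17lb, Usp17lc, Usp17ld and Usp17le, the zinc finger genes Zscan4c, Zscan4d, Zscan4f and Zfp352, and Gm8300. They were chosen by symbol from a table of 24079 genes, and all 10 were found in it. Usp17lb and Gm8300 were selected on their strong rise in the comparison described below, so their values are given as a description and without a test. RNA-seq was made from CGR8 mouse ES cells, an established line grown without feeder cells on gelatin, in serum and LIF. Control cells were kept for 48 h in 0.5% DMSO, and PhenDC3 cells for 48 h in 10 μM PhenDC3 with the same 0.5% DMSO, with 3 RNA-seq replicates of each. PhenDC3 is a bisquinolinium compound that binds and stabilises G-quadruplexes (G4), 4-stranded structures of guanine-rich DNA. SNS-seq, the sequencing of short nascent DNA strands from newly started replication origins, covered 3 control replicates and 2 PhenDC3 replicates of the same treatments.

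In the mouse embryo the genome is first switched on broadly at the 2-cell stage, and the genes of that stage are then shut down. In ES cell cultures a small, changing fraction of cells switches part of this program back on for a short time, which is called the 2-cell-like state. The double-homeobox factor Dux is a known activator of the program, Dppa2 and Dppa4 act upstream of it, and chromatin regulators such as CAF-1, G9a, KAP1 and a variant Polycomb complex keep it silent. Zscan4 proteins carry a SCAN domain and zinc fingers and are known for their part in telomere maintenance and genome stability in ES cells. Usp17l (also called Dub) genes encode enzymes that remove ubiquitin from proteins. Zfp352 encodes a zinc finger protein of the early embryo, and Gm8300 belongs to a group of mouse genes that resemble the translation initiation factor gene Eif1a.

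The 10 genes lie in 5 places of the genome (GRCm38.p6, the build of the SNS-seq files, with RefSeq gene models). Usp17ld (chr7:103250086-103252505, minus strand) and Usp17lc (chr7:103416696-103419174, plus strand) form a pair. Usp17le (chr7:104767961-104777470, minus), Usp17lb (chr7:104840257-104842583, minus) and Usp17la (chr7:104857016-104862667, plus) form a second group on the same chromosome. Zscan4c (chr7:11005745-11010547, plus), Zscan4d (chr7:11161643-11166148, minus) and Zscan4f (chr7:11397915-11402318, plus) lie within 396.6 kb of that chromosome, far from the Usp17l genes. Gm8300 is at chr12:87514316-87518265 (plus) and Zfp352 at chr4:90218820-90225687 (plus).

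The sequences upstream of the starts show how alike these copies are. RefSeq promoter windows (250 bases before to 50 bases after the start) matched 8 of the 10 genes, and Usp17le and Gm8300 had no entry. A pair of words was searched on both strands of the windows, TATAAA (the TATA box) and TGATTNAAT (the core of the sequence that Dux is known to bind), which do not overlap each other in any member. The stretches of the Zscan4 genes are shown because TATAAA falls in all 3 of them and TGATTNAAT in those of Zscan4c and Zscan4f. They are written 5′ to 3′ on the strand of the gene, with the words in capitals (Zscan4c chr7:11005560-11005696, Zscan4d chr7:11166208-11166344, Zscan4f chr7:11397753-11397889).
Zscan4c: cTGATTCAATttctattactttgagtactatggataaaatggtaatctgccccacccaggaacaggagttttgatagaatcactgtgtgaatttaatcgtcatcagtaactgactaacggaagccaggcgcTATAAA
Zscan4d: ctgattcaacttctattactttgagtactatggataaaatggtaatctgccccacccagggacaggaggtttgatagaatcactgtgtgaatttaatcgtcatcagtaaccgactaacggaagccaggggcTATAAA
Zscan4f: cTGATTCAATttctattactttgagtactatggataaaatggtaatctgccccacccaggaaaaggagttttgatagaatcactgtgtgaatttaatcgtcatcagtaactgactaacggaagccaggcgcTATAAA
Over these 137 bases Zscan4f differed from Zscan4c at 1 base and Zscan4d at 5 bases. TGATTNAAT was present in Zscan4c (from base -184 counted from the start) and Zscan4f (from base -161), and in the windows of 0.84% of all 27025 genes with an entry. TATAAA began at base -54 in Zscan4c, -65 in Zscan4d and -31 in Zscan4f, and 15.67% of all genes held it.

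The Usp17l stretches are shown because 3 of them hold TATAAA (none holds TGATTNAAT), as 106 bases that end with it or, for Usp17la, with the aligned bases (Usp17lb chr7:104842609-104842714, Usp17lc chr7:103416508-103416613, Usp17ld chr7:103252610-103252715, Usp17la chr7:104856870-104856975).
Usp17lb: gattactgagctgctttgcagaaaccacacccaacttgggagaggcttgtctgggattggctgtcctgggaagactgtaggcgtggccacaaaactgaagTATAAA
Usp17lc: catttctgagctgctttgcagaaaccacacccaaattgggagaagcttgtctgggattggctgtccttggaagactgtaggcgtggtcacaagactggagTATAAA
Usp17ld: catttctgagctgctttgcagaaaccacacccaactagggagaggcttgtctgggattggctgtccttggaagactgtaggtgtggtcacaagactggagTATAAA
Usp17la: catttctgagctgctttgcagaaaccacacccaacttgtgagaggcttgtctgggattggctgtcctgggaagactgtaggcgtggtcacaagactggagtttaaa
Usp17lc and Usp17ld each differed from Usp17lb at 8 of these bases. Usp17la differed from Usp17ld at 5 bases, and its last 6 bases differed from TATAAA at 1 base. TATAAA began at base -31 in Usp17lb, -88 in Usp17lc and -110 in Usp17ld.

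Zfp352 held neither word, and its upstream sequence is shown for its repeats (chr4:90218570-90218769, capitals mark each ACAACACAC).
Zfp352: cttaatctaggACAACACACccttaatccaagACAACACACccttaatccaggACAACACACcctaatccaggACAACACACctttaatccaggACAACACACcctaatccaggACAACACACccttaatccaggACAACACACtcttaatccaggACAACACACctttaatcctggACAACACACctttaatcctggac
The word was chosen after the sequence was seen. It occurred 9 times in the window of Zfp352, and of 32851 promoter windows this was the only 1 that held it more than once. No G4 as defined by Quadparser (runs of at least 3 G with short loops) was found in any of the 8 windows, while 20.44% of all genes had one. Within 2 kb of the start on either side, 4 of the 10 genes had a predicted G4 (Usp17la, Usp17lb, Usp17le and Zfp352), against 70.1% of 23790 genes with a curated start.

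The RNA-seq table held between 22232014 and 29486502 counts per sample. Of its genes, 13972 passed the filter on low counts and were tested with edgeR's quasi-likelihood test, and 36.8% were called at an adjusted p of at most 0.05, 18.0% as higher with PhenDC3 and 18.7% as lower. The scaling between samples bears on this split: of the called genes 49.0% were higher with the relative log expression factors used here, and 67.9% were higher on library totals alone, which also moved the median of all genes from 0.01 to 0.16 on the log2 scale. For RNA-seq the labels give replicate numbers, and a running number in the names of the count columns. The running number sets the control and PhenDC3 sample of a replicate next to each other. Neither says that replicates were separate cultures or that samples were paired, so the p-values measure the spread between these samples.

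All 10 genes passed the filter and were higher with PhenDC3, with log2 changes between 2.40 and 4.20. Usp17lc, Usp17ld and Zfp352 passed it only through their PhenDC3 samples, where they were high, so their calls are a description. They were also called without the filter. Usp17lb, selected on its rise, passed the filter in the same way. The 8 genes not selected on their rise were all called, with adjusted p-values between 8.4e-05 and 0.0027 (edgeR). Their median log2 change was 2.86, against 0.01 for all genes tested. In each of these 8 genes every PhenDC3 sample lay above every control, which was so for 25.0% of all genes tested. These 8 genes were chosen by name with earlier results of these data known. The Usp17l genes among them are close copies of the selected Usp17lb, with transcripts identical to it at 90.6% to 91.5% of aligned bases. Their calls are thus no independent support for the rise. A larger fraction of cells in the 2-cell-like state and more RNA of these genes per cell cannot be told apart in bulk samples.

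**Figure D1:**
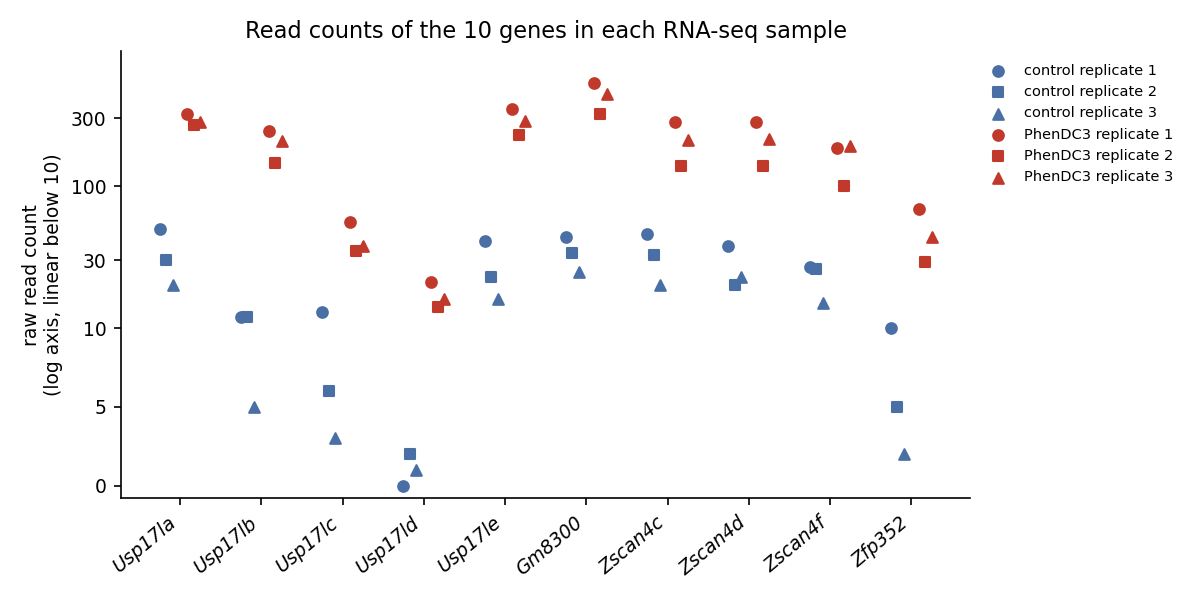
Raw read counts (log axis, linear below 10) of the 10 genes in the 3 control samples (blue) and the 3 PhenDC3 samples (red), 1 point per sample. For each gene the PhenDC3 samples sit above all controls, and the counts span from 0 for Usp17ld in control replicate 1 to 537 for Gm8300 in PhenDC3 replicate 1.

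Among the deubiquitinase genes, Usp17la had 50, 30 and 20 reads in the controls (here and below in the order of replicates 1, 2 and 3), and 325, 268 and 282 with PhenDC3. It rose by 3.0 ± 0.25 on the log2 scale (SE, n = 3 per condition), with an adjusted p of 9.5e-05 (edgeR). Usp17le went from 41, 23 and 16 reads to 348, 229 and 287, a log2 change of 3.29 ± 0.27 (adjusted p = 8.4e-05, edgeR). These 2 genes gave most of the reads of the family in both conditions. Usp17lb, selected on its rise, had only 12, 12 and 5 reads in the controls and 245, 145 and 209 with PhenDC3. Its log2 change was 4.20 ± 0.31. Usp17lc and Usp17ld were low in every sample. Usp17lc had 13, 6 and 3 control reads and 56, 35 and 38 reads with PhenDC3 (log2 change 2.40 ± 0.42, adjusted p = 0.0027, edgeR). Usp17ld had 0, 2 and 1 control reads against 21, 14 and 16 (adjusted p = 0.0025, edgeR). With 3 control reads in all, its ratio was 15.4 with a 95% interval of 4.98 to 77.1 that covers counting error only.

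The Zscan4 genes all rose, and their counts were alike. Zscan4c had 46, 33 and 20 reads in the controls and 284, 138 and 212 with PhenDC3 (log2 change 2.52 ± 0.30, adjusted p = 0.00039, edgeR). Zscan4d went from 38, 20 and 23 to 284, 139 and 214 (2.82 ± 0.27, adjusted p = 0.00017, edgeR). Zscan4f went from 27, 26 and 15 to 186, 100 and 192 (2.64 ± 0.30, adjusted p = 0.00032, edgeR). The 3 changes lay within about 1 SE of each other, and the difference between the families was not tested. PhenDC3 replicate 2 had the lowest counts of its condition for all 10 genes, and it also had the lowest total of its condition, 22319879 counts.

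Gm8300, selected on its rise, was the most abundant of the 10 genes with PhenDC3. It had 44, 34 and 25 reads in the controls and 537, 325 and 444 with PhenDC3, a log2 change of 3.51 ± 0.22. Zfp352 had few reads, 10, 5 and 2 in the controls and 69, 29 and 44 with PhenDC3, and rose by 2.89 ± 0.48 on the log2 scale (adjusted p = 0.0020, edgeR).

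Levels were compared between genes as normalised CPM (the count over the scaled library total, set to a common size) per kb of transcript. With PhenDC3 they were 8.60 ± 1.34 for Gm8300 (SD, n = 3), 5.67 ± 0.673 for Usp17le, 4.79 ± 0.798 for Usp17lb, 4.12 ± 0.219 for Usp17la, 3.92 ± 1.01 for Zscan4d, 3.41 ± 0.896 for Zscan4c and 3.21 ± 0.811 for Zscan4f. From Usp17le down to Zscan4f each gene overlapped its neighbour in this order within 1 SD, and Gm8300 stood above them. Usp17lc (0.940 ± 0.179), Zfp352 (0.767 ± 0.266) and Usp17ld (0.385 ± 0.0512) were lower, and Usp17lc and Zfp352 overlapped within 1 SD. In the controls, Gm8300 (0.752 ± 0.152), Zscan4c (0.591 ± 0.186), Usp17le (0.570 ± 0.210), Zscan4d (0.549 ± 0.124), Zscan4f (0.512 ± 0.148) and Usp17la (0.508 ± 0.178) overlapped. The means of Usp17lb (0.259 ± 0.109), Usp17lc (0.172 ± 0.101), Zfp352 (0.0997 ± 0.0609) and Usp17ld (0.0273 ± 0.0278) were lower, and each overlapped its neighbour in this order within 1 SD. Usp17lb also overlapped Usp17la, Usp17le and Zscan4f.

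Most of these genes have near-identical copies, and how reads that match several copies were counted is not given in the sources used here. The RefSeq transcripts of Zscan4c and Zscan4f were identical at 99.6% of aligned bases, those of Usp17lc and Usp17ld at 98.4%, and the other pairs of Usp17l genes at 90.6% to 94.9%. Gm8300 was identical to its like genes at 93.3% to 94.8% of bases. Every stretch of 50 bases of each transcript was looked up in the genome, and those not found there, such as those across exon junctions, were left out. Of the rest, 97.0% occurred at more than 1 place for Zscan4f, 84.6% for Zscan4c, 49.6% for Zscan4d, 61.8% for Usp17lc and 61.7% for Usp17ld. The share was 40.8% for Gm8300, 33.8% for Usp17le, 24.1% for Usp17la, 22.8% for Usp17lb and 9.1% for Zfp352. The values of single copies, above all of Zscan4f, Zscan4c, Usp17lc and Usp17ld, are therefore uncertain. With stretches of 100 bases the share was 93.1% for Zscan4f, 71.3% for Zscan4c, 47.5% for Usp17ld, 46.4% for Usp17lc and 27.7% for Zscan4d, and 15.9% or lower for Gm8300, Usp17lb, Usp17le, Usp17la and Zfp352. The reference is that of another mouse strain than CGR8, and copies particular to CGR8 were not examined.

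To lessen the dependence on how reads were split, the copies of a family were added up. The 5 Usp17l genes together gave 3.93, 3.28 and 1.79 CPM on library totals in the controls, and 36.26, 30.96 and 31.41 CPM with PhenDC3. The ratio of the means was 10.9. The 3 Zscan4 genes gave 3.76, 3.55 and 2.31 CPM in the controls and 27.48, 16.89 and 23.33 CPM with PhenDC3, a ratio of 7.03. With the 3 remaining genes of the family in the table (Zscan4a, Zscan4b and Zscan4e), the ratio was 6.72. The conditions did not overlap in any of the 3 sums. The exact two-sided permutation test gave p = 0.1 for both Zscan4 sums, the smallest value that 3 against 3 samples allow, and the Usp17l sum was not tested because it holds Usp17lb. Entered as a single sum into the edgeR fit, the Usp17l genes changed by 3.29 ± 0.24 on the log2 scale and the Zscan4 genes by 2.66 ± 0.24. The Usp17l sum of the controls varied 2.19-fold between its lowest and its highest sample, and that with PhenDC3 1.17-fold. For Zscan4 the spread was 1.63-fold in both conditions.

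The share of each copy in the counts of its family is given as a description, since the selection of Usp17lb on its rise sets the direction of its own share and bears on those of the other Usp17l genes, which make up the remainder. The share of Usp17lb lay between 10.3% and 16.4% in the controls and between 21.0% and 25.1% with PhenDC3. The share of Usp17la was 41.1% to 44.4% in the controls and 32.7% to 38.8% with PhenDC3, and that of Usp17lc 6.7% to 11.2% and 4.6% to 5.6%. Usp17le held 31.5% to 35.6% in the controls and 33.1% to 35.0% with PhenDC3. In the Zscan4 family the shares of Zscan4c, Zscan4d and Zscan4f overlapped between the conditions.

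**Figure D2:**
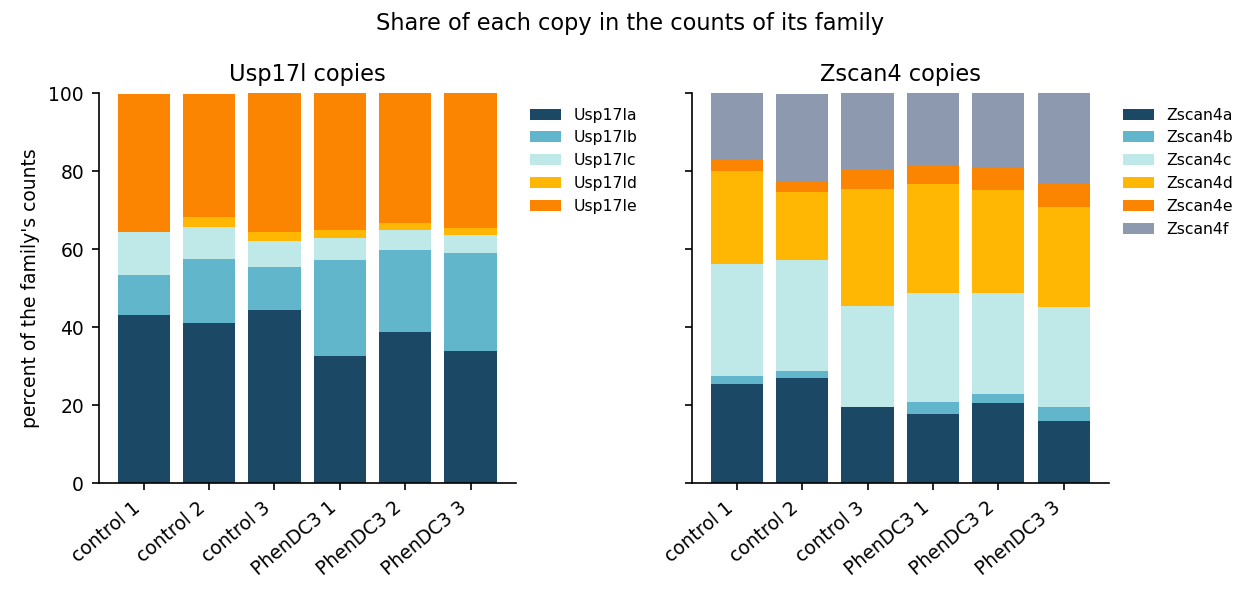
Percent of a family's read counts given by each copy, for the 5 Usp17l genes (left) and the 6 Zscan4 genes (right) in each of the 6 RNA-seq samples, 1 bar per sample. The parts of Zscan4c, Zscan4d, Zscan4f and Usp17le overlap between conditions, and that of Usp17lb, selected on its rise, is 10.3% to 16.4% in the controls and 21.0% to 25.1% with PhenDC3.

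Other transcripts of the 2-cell stage were taken from a list of 48 genes, of which 42 were in the table, 7 had no read in any sample and 27 were tested. Of these 27, 25 rose and 1 fell (18.0% and 18.7% of all genes tested), with a median log2 change of 2.69 (0.01 for all genes tested). This count is a description. Several of the 27, such as Tdpoz4, Zscan4b, Zscan4e, Gm12794, Gm5662, Gm2016, B020004J07Rik and Trim43a, passed the filter only through their PhenDC3 samples. This tilts the tested genes toward rises. The list also holds copies of the Zscan4 genes and of Gm8300, and it was written with earlier results of these data known. The Tdpoz gene Tdpoz4 had 3 reads in all controls together and 123 with PhenDC3, a ratio of 37.1 (95% interval 12.4 to 182, counting error only). Gm12794 rose from 15, 8 and 5 reads to 223, 129 and 175 (log2 change 4.07 ± 0.32). The Gm8300-like genes rose too, Gm5662 by 3.65 ± 0.36, Gm2022 by 3.56 ± 0.26, Gm2016 by 3.47 ± 0.52 and Gm5039 by 3.04 ± 0.25 on the log2 scale. Zscan4b rose by 3.58 ± 0.66 and Zscan4e by 3.23 ± 0.36. Further rises were those of B020004J07Rik (3.93 ± 0.60), Trim43a (3.26 ± 0.59) and AF067061 (2.94 ± 0.25). Of these genes, Gm2022, Gm5039 and AF067061 reached the cutoff of the filter in all controls too. Their adjusted p-values in edgeR were 1e-04 or lower. Trim43b, the gene that fell (log2 change -0.60 ± 0.20, adjusted p = 0.041, edgeR), had the opposite direction to its neighbour in name Trim43a. Its call was lost without 4 of the 6 samples left out in turn and on library totals alone. Without the filter on low counts 3 more genes of the list were called higher, Pramef6, Tdpoz1 and Tdpoz2.

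**Figure D3:**
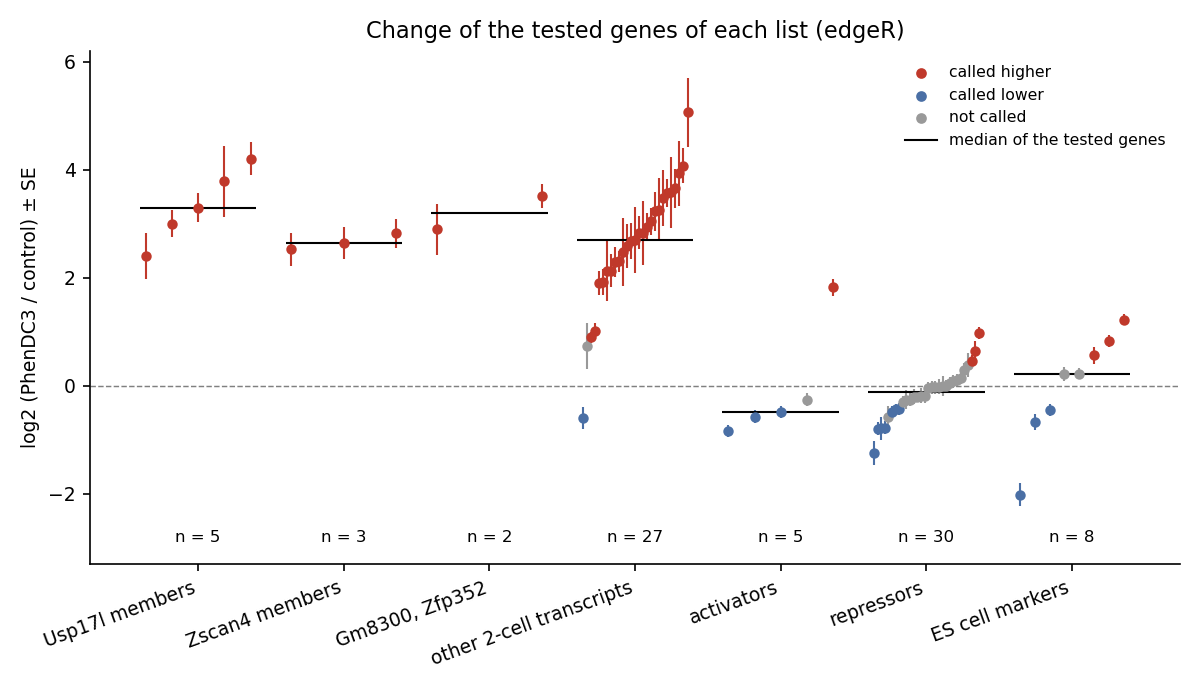
Log2 ratio of PhenDC3 over control with its SE (edgeR) for every tested gene of each list, coloured by call, with the median of the list as a black line. The medians are 3.29 for the 5 Usp17l genes, 2.64 for the 3 Zscan4 genes, 2.69 for the other 2-cell transcripts, -0.49 for the activators and -0.12 for the repressors.

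Of 10 listed activators 9 were in the table and 5 were tested, of which Tbx3 rose, Dppa2, Dppa4 and Trp53 fell and 1 was not called (median log2 change -0.49). Of all genes tested 36.8% were called, 18.7% as lower, and 5 genes are too few to set against this share. Dux, a known activator of the program, had 4, 3 and 0 reads in the controls and 12, 12 and 6 with PhenDC3, too few to pass the filter. Without the filter its log2 change was 1.92 ± 0.75, with an adjusted p of 0.074 (edgeR). Dppa2 fell by 0.58 on the log2 scale, from 4611, 3712 and 3199 reads to 3377, 2426 and 2733 (adjusted p = 0.0069, edgeR). Dppa4 fell by 0.84, from 6196, 4743 and 4462 reads to 3351, 2871 and 3235 (adjusted p = 0.00056, edgeR). Trp53, which encodes p53 and acts on Dux after DNA damage, fell by 0.49 (adjusted p = 0.010, edgeR). Tbx3, a T-box factor that has been tied to Zscan4 expression, rose by 1.82 ± 0.16 on the log2 scale, from 3212, 2869 and 2130 reads to 11622, 10589 and 9758 (adjusted p = 1e-04, edgeR).

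Of 30 listed repressors of the program, all were tested, 7 fell, 3 rose and 20 were not called, with a median log2 change of -0.12. These shares are near those of all genes tested, of which 18.7% fell and 18.0% rose, so the counts are no result about repressors, and the single genes are given for their values. Lin28a, an RNA-binding protein that represses Dux together with nucleolin, fell by 1.25 on the log2 scale, from 12715, 8223 and 11891 reads to 5676, 3060 and 6662. Ehmt2 (G9a, an H3K9 methyltransferase) fell by 0.80, Uhrf1 (needed to maintain DNA methylation) by 0.79 and Chaf1b (a subunit of CAF-1) by 0.78. Smaller falls were those of Pcgf6 (-0.49, a subunit of a variant Polycomb complex), Sumo2 (-0.44, a protein modifier) and Ncl (-0.43, nucleolin). The adjusted p-values of the 7 falls lay between 0.0012 and 0.018 (edgeR). On library totals alone the falls of Pcgf6, Sumo2 and Ncl were no longer called, with adjusted p-values of 0.054, 0.054 and 0.078 (edgeR). Rybp, a subunit of Polycomb complexes, rose by 0.97 ± 0.11, Kdm5b, an H3K4 demethylase, by 0.64 ± 0.19, and Zfp809, which silences retroviruses, by 0.46 ± 0.11. Kdm5b kept its call in 2 of the 6 fits that left out a sample, and Ncl in 3.

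The labelled cell type was checked against 8 ES cell markers, and all 8 were strongly expressed, with a summed level of 6690 to 7440 CPM in the controls and 7540 to 8790 CPM with PhenDC3. Nanog (1.22 ± 0.10), Klf4 (0.82 ± 0.11) and Dppa5a (0.56 ± 0.16) rose on the log2 scale. Utf1 (-2.02 ± 0.21), Tdgf1 (-0.67 ± 0.15) and Pou5f1 (-0.45 ± 0.11) fell, and Sox2 (0.22 ± 0.10) and Esrrb (0.21 ± 0.13) were not called. Of the 6 calls, that of Dppa5a was the weakest (adjusted p = 0.025, edgeR) and held in 2 of the 6 fits that left out a sample. On library totals alone Pou5f1 was not called (adjusted p = 0.083) while Sox2 (0.023) and Esrrb (0.046) were, in edgeR. Some markers of primitive endoderm and trophoblast also rose, while Sox7, Hand1 and Cdx2 of these lists were not called. For the counts that follow, 18.0% of all genes tested rose. Of 6 primitive endoderm markers 5 rose (Gata4, Gata6, Sox17, Pdgfra and Foxa2), of which Gata6 kept its call in 3 and Pdgfra in 4 of the 6 fits that left out a sample, and the summed level of the 6 went from 25.2 to 47.8 CPM in the controls to 62.8 to 81.2 CPM with PhenDC3. Of 6 trophoblast markers 5 were tested and 3 rose (Krt8, Krt18 and Tfap2c), with 77.6 to 108 CPM in the controls and 172 to 228 CPM with PhenDC3. The defining trophoblast factors Cdx2 (12, 9 and 4 reads, then 7, 11 and 8) and Elf5 (at most 7 reads in a sample) were near 0. Of 6 fibroblast markers 3 were tested, none was called higher and Thy1 fell, and Dcn had no read. The summed level was 5.88 to 6.84 CPM in the controls and 3.18 to 5.81 CPM with PhenDC3. Thy1 alone had a mean of 5.03 CPM in the controls and 2.02 CPM with PhenDC3. Col1a1 (0.68 ± 0.38) and Col1a2 (1.64 ± 0.72) had positive log2 changes that were not called. The part of other cell types in the changes of the 10 genes was not tested.

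Within each condition, the samples with more Zscan4 RNA were looked for among other genes as a description. The deviations of each gene from its condition mean, on the log2 CPM scale, were correlated with those of the summed Zscan4c, Zscan4d and Zscan4f over the 6 samples, among 12859 genes with at least 20 counts on average. The points share their libraries and 2 condition means, so few degrees of freedom are left and many genes reach high values. The 5 highest were Nodal (r = 0.995), Frat2 (0.990), Tmem198b (0.990), BC023829 (0.989) and Mad2l1 (0.989). Gm8300 was at place 19 (r = 0.972) and Zfp352 at place 51 (0.943). The Usp17l genes with enough counts were further down, Usp17lb at 0.846, Usp17le at 0.839, Usp17lc at 0.773 and Usp17la at 0.646.

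The genes around the 10 genes were then examined, within 500 kb of each place and without the members. Around Usp17ld and Usp17lc, 63 of 65 annotated neighbours had no read in any sample, and the 1 tested gene was not called. Around Usp17le, Usp17lb and Usp17la, 31 of 41 neighbours had no read, and neither of the 2 tested genes was called. Around the Zscan4 genes 10 of 13 neighbours had no read, and the 3 tested ones were the copies Zscan4a, Zscan4b and Zscan4e, which all rose. The only neighbour of Zfp352 had no read. Of the 25 neighbours of Gm8300 18 were tested, of which 6 rose and 2 fell. Among these were the like genes Gm2022 and Gm2016, Ism2, a secreted protein gene (2.23 ± 0.33), and Tmed8 (0.61 ± 0.16), which rose, and Slirp, an RNA-binding protein of mitochondria, which fell by 0.74 on the log2 scale. Of the 16 tested neighbours outside the lists 4 rose and 2 fell, against 18.0% and 18.7% of all genes tested. Besides Ism2 and Tmed8, those that rose were Gm1995 (2.01 ± 0.55) and Gm21319 (1.52 ± 0.41), which lie between Gm8300 and Gm2022.

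The SNS-seq lists were read at the same places, which the choice of genes did not use. The control lists held between 79384 and 120898 peaks and the PhenDC3 lists 144116 and 102407, called by the authors per replicate with an RNase-treated library as background. None of the 10 genes had a peak within 2 kb of its start in any of the 5 lists, whereas 30.7% to 51.1% of 23790 genes had one. The lists give no read counts, so the depth behind an absent peak is unknown, and how reads that match several copies were treated is not given in the sources used here. Within 5 kb, control replicate 1 had a peak in the body of Usp17la at a fold enrichment of 5.89, with its summit 2104 bases from the start, and control replicate 3 had one at 6.69, with its summit at 2067 bases. Control replicate 2 and both PhenDC3 lists had none there. Usp17lc and Usp17ld, whose transcripts are nearly the same, each had a peak at their far end in PhenDC3 replicate 1 (fold enrichment 5.17 and 4.33) and in no other list. These 4 peaks were weaker than most, at percentiles 32.9, 43.5, 21.8 and 5.8 of their lists by −log10 p. No difference between the conditions can be read from peaks that 1 replicate holds and another lacks.

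**Figure D4:**
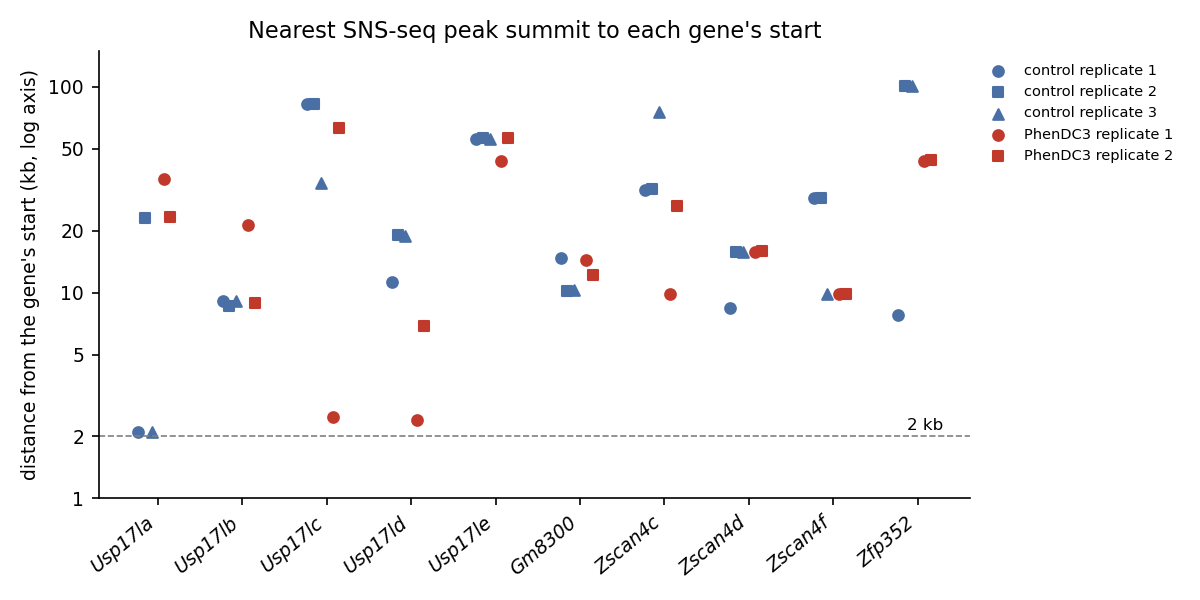
Distance (kb, log axis) from the start of each gene to the nearest SNS-seq peak summit in the 3 control lists (blue) and the 2 PhenDC3 lists (red), 1 point per list, with a dashed line at 2 kb. All points lie above the line, from 2.1 kb for Usp17la in 2 controls to 100.6 kb for Zfp352 in 2 controls.

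The surroundings of the genes held fewer peaks than the genome average in all 5 lists. Within 500 kb of the Usp17le, Usp17lb and Usp17la group there were 9.1 to 14.6 peaks per Mb in the controls and 16.4 to 20.1 with PhenDC3, against 29.1 to 44.4 and 37.6 to 52.9 over the genome. Around the Zscan4 genes there were 13.6 to 25.1 peaks per Mb in the controls and 20.8 to 29.4 with PhenDC3. Around Gm8300 the values were nearer to the genome average, 21.9 to 33.9 in the controls and 30.9 to 46.8 with PhenDC3. The nearest summit to Zscan4f lay 9.9 kb from its start in control replicate 3 and in both PhenDC3 lists, and 28.8 kb away in the other two controls.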

How the data were processed

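RNA-seq was available for 3 control and 3 PhenDC3 samples and SNS-seq for 3 and 2. For RNA-seq, the authors made stranded mRNA libraries (TruSeq), mapped reads with TopHat 2.1.1 and Bowtie2 2.2.9 and counted them on genes with HTSeq 0.6.1p1, and the deposited counts are raw. The strand setting, the annotation and the treatment of reads with several matches are not given in the sources used here. For SNS-seq, the authors mapped reads to mm10 and called peaks with MACS2 2.1.0, kept where they overlapped a SICER region, and the deposited lists give each peak's fold enrichment as a ratio to an RNase-treated library and its −log10 p. The deposited DESeq2 table and pseudo-counts were not used.

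Counts were tested with edgeR 4.0.16 in R 4.3.3 (quasi-likelihood, robust, relative log expression, filterByExpr, Benjamini-Hochberg over all 13972 genes tested, adjusted p at most 0.05), and the procedure was tested on simulated data. SE is that of the log2 change. Family sums were compared with exact permutation tests. Peaks were assigned by an overlap of 1 bp with 2 kb on each side of the start. The members and gene lists were chosen with earlier results of these data known. Named were all members, at most 12 called genes of each 2-cell list, Dux, Dppa2, Dppa4, Trp53, the ES cell markers, the 5 most similar genes and at most 5 called neighbours of a place. Genes of the other marker lists, those called only without the filter, Gm1995 and Gm21319 were named after their values were seen. The alternatives were DESeq2 1.42.0, TMM, no filter, a replicate block, each replicate left out, summed copies, other peak windows and, chosen after seeing the data, no scaling factor and a wider window for G4.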

Additional observations from a re-analysis of the deposited data

How the results depend on the processing

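For the 8 genes not selected on their rise, direction and call held in all 88 comparisons, with log2 changes between 2.05 and 4.70. The comparisons used DESeq2, TMM, no filter, no scaling factor, the replicate block and each sample left out. Usp17lc, Usp17ld and Zfp352 passed the filter only through their PhenDC3 samples, so their calls here are a description. Usp17ld moved most, from 3.78 to 3.15 without control replicate 1 and to 4.70 without control replicate 2. With the copies of a family summed the 10 genes became 4 entries, and the Zscan4 sum was called higher. The call of Zfp352 is again a description, and the remaining entries hold genes selected on their rise. The ratios of summed CPM lay between 9.11 and 13.0 for Usp17l and between 6.17 and 7.92 for Zscan4 members. Control and PhenDC3 samples are tied only by replicate numbers and adjoining running numbers. The deviations of samples with the same replicate number correlated at 0.09, 0.54 and 0.41, each above that with any other number. The fit with the replicate block called 3797 genes higher and 3692 lower, and 5 repressors higher and 12 lower, and it changed no call of the 8 genes. Without a scaling factor 1690 genes, 4 repressors and 0 other 2-cell transcripts were called lower. With a sample left out, 1623 (PhenDC3 replicate 1) to 2727 genes were called lower, and 1709 to 2689 higher. Of the repressors 1 (without PhenDC3 replicate 1) to 5 (without control replicate 3) were called higher, and of the other 2-cell transcripts 0 to 1 lower, since Trim43b was lost without control replicate 1 and without each PhenDC3 replicate. Peaks near a start rose from 0 to 4 with a window of 5 kb and stayed at 0 with stronger peaks or summits, and a predicted G4 was found at 4 of 10 genes within 2 kb of the start, against 0 of the 8 genes with a promoter window. Low counts limit Usp17ld, Zfp352 and Dux, and matching copies limit single Zscan4 and Usp17l genes. No protein comparison was made, since no protein table was used here.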
